A study of Mus musculus with 12 samples.

Results

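The constitutive proteasome subunit genes were followed in CD11c+ cells of mouse spleen. They were chosen by name, as the genes with a Psma, Psmb, Psmc or Psmd symbol and a number, leaving out the immunoproteasome subunits Psmb8, Psmb9 and Psmb10. The probe list named 36 such genes on 64 probes. Of these, 32 genes on 54 probes had a detection p-value under 0.05 on at least 3 of the 12 arrays and were tested, out of 14326 genes on 26390 probes tested in all. A gene's value is that of its brightest tested probe unless another is named.

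The proteasome is the cell's main protease for proteins tagged with ubiquitin. Its 20S core is a barrel in which rings of alpha subunits gate the entry and rings of beta subunits carry the proteolytic sites. A 19S cap sits on the core, with a base whose ATPases unfold and thread the substrate and a lid that removes the ubiquitin. Subunits are needed in fixed proportions, and the transcription factor NRF1, encoded by Nfe2l1, raises many of their genes together when proteasome activity is short. In dendritic cells the proteasome also cuts proteins into the peptides shown on MHC class I molecules, where immunoproteasome subunits replace some beta subunits of the core.

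RNA came from CD11c+ cells taken from spleens with magnetic beads, and each sample had a separate Illumina MouseWG-6 v2 array, on which bead-bound probes report a transcript as brightness. There were 4 groups of 3 samples: ApoE-/- on normal chow (samples 1 to 3), ApoE-/- on a high-cholesterol diet (4 to 6), Bl6 on normal chow (7 to 9) and Bl6 on the high-cholesterol diet (10 to 12). The knockout lacks apolipoprotein E, a lipid carrier protein, and Bl6 is the wild-type control. Age, time on diet, sex, the purity of the cells and whether samples are separate mice are not given in the sources used here, so a p-value reflects only how much these samples vary, and that variation may be technical. The series text calls the diet high fat where the sample labels say high cholesterol.

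Per array, 22077 to 23245 of 46237 probes were detected. On the normalised log2 scale Apoe lay between 12.18 and 13.29 across the 6 samples of Bl6 and between 5.50 and 5.93 across the 6 of the knockout, as the genotype labels have it. All 10 dendritic cell marker genes passed the detection filter and limma called none of them for genotype, although Flt3 was detected on only 5 arrays. Their summed level spanned 91634 to 100824 in the knockout arrays and 95088 to 99359 in those of Bl6. Most of that sum came from H2-Ab1, H2-Eb1, Cd74 and Sirpa, which lay between 13.66 and 14.83 on the log2 scale. It therefore says little about the dimmer markers, such as Itgax at 8.03 to 8.73. Genotype also coincided with Xist, at 4.17 to 4.39 in ApoE-/- and 9.75 to 10.88 in Bl6, and with the Y-linked Eif2s3y, at 9.75 to 10.44 in ApoE-/- and 4.11 to 4.41 in Bl6, so genotype and sex cannot be told apart. The deposited tables disagree on which ApoE-/- arrays were chow and which were high-cholesterol. The names in the intensity table were used, and values with these diets exchanged are given where they matter.

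Among the 32 proteasome genes, Psmd8 alone changed with genotype when its brightest probe was read, and that probe read 9.34-fold lower in ApoE-/- samples. Psmd8 encodes Rpn12, a lid subunit that in yeast is the last to join the lid. The share called was 1 of 32 genes, against 1.96% of all 14326 genes tested (1.14% lower). The other 31 genes lay between -0.24 and 0.27 on the log2 scale, and their median difference was 0.00 against 0.01 over all genes. For 30 of these 31 genes the 95% confidence interval of the genotype difference stayed within 1.5-fold in either direction. That is a share of 96.8%, against 77.5% of all genes tested, which were not matched for brightness.

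Psmd8 lies on chromosome 7 (chr7:29174187-29180673, GRCm38.p6, minus strand), 9.48 Mb from the start of Apoe. Psmc4, which encodes the base ATPase Rpt3, lies on the same chromosome (chr7:28041702-28050092, minus strand), 8.35 Mb from Apoe. Their promoter sequences follow because both genes lie near Apoe and have probes that differed with genotype. That of the lid gene Psmd12, whose probes were not called, stands beside them. Each runs 5′ to 3′ in the direction of its gene, from 250 bases before to 50 bases after the start, as RefSeq gives it on GRCm38.p6. Capitals mark the letters ACTTCCG, a form of the ETS factor motif, and in Psmd12 also the antioxidant response element core TGACNNNGC, read on the other strand, which NRF1 is known to bind.
Psmd8 (chr7:29180624-29180923, minus strand): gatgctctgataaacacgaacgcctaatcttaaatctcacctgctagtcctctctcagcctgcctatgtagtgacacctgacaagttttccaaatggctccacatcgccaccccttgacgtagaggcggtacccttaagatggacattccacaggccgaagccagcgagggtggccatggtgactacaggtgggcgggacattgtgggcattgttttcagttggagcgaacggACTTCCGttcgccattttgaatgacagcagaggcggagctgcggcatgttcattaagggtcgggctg
Psmc4 (chr7:28050043-28050342, minus strand): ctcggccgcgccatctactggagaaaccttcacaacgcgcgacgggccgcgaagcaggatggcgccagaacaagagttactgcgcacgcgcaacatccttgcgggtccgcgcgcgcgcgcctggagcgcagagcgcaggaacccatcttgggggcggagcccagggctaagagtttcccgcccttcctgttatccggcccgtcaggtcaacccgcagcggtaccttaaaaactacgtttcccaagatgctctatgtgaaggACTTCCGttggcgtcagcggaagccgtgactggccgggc
Psmd12 (chr11:107479278-107479577, plus strand): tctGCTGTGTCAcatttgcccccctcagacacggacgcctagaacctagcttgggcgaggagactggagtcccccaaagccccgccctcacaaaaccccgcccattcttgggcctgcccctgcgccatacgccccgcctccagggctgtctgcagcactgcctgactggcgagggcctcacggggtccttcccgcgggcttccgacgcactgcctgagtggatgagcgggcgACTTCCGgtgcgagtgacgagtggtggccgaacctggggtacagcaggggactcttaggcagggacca

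A promoter of this length was at hand for 26 of the 32 genes, and both strands were searched. The proteasome counts are by gene, where a hit in any listed promoter counts, and the shares beside them are by promoter. The units are therefore not quite alike. The letters ACTTCCG were in 10 of the 26 (38.5%: Psma4, Psmb4, Psmc1, Psmc2, Psmc4, Psmd6, Psmd8, Psmd12, Psmd13 and Psmd14), against 6.42% of 32851 promoters in the table. This motif was noticed after the sequences had been read, so the count is a description. The core TGACNNNGC was in 5 of 26 (19.2%: Psmb5, Psmb6, Psmc6, Psmd9 and Psmd12), against 12.4% of all promoters. The CCAAT box was in 9 of 26 (34.6%), against 37.4%. Psmd8 shared the letters ACTTCCG with genes that were not called for genotype, such as Psmd12 and Psmd13.

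The brightest probe of Psmd8 read 8.15, 8.10 and 8.01 in ApoE-/- samples 1 to 3 on chow and 8.26, 7.97 and 8.15 in samples 4 to 6 on the high-cholesterol diet, in log2 normalised brightness. In Bl6 it read 11.25, 11.48 and 11.27 in samples 7 to 9 on chow and 11.38, 11.24 and 11.37 in samples 10 to 12 on the high-cholesterol diet. All 6 ApoE-/- values lay far below the lowest Bl6 value, and the genotypes did not overlap. Group means were 8.09 ± 0.07 and 8.13 ± 0.14 in ApoE-/- (chow, then high cholesterol), and 11.34 ± 0.13 and 11.33 ± 0.07 in Bl6 (SD, n = 3). Averaged over the diets, ApoE-/- was lower by -3.22 ± 0.08 (SE; 95% interval -3.41 to -3.04; limma adjusted p 8.9e-10), a fold of 9.34. As measured, without background correction or scaling, the brightness was 318 to 420 in ApoE-/- and 2327 to 2824 in Bl6, and the Bl6 mean was 7.16 times the ApoE-/- mean. The probe was detected on all 12 arrays, so it was dim but above background in the knockout.

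The fall of the brightest Psmd8 probe was present on each diet. On chow Psmd8 was the one proteasome gene of 32 called, against 0.307% of all genes tested, with a difference of -3.25 ± 0.12 (limma adjusted p 4.1e-08). On the high-cholesterol diet it was again the one called of 32, against 0.907% of all genes, with -3.20 ± 0.12 (adjusted p 4.9e-08). With the ApoE-/- diets exchanged these values were -3.21 and -3.24. Diet did not move it measurably: its difference between diets was -0.01 ± 0.12 in Bl6 (95% interval -0.26 to 0.25) and 0.04 ± 0.12 in ApoE-/- (-0.22 to 0.30).

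**Figure D1:**
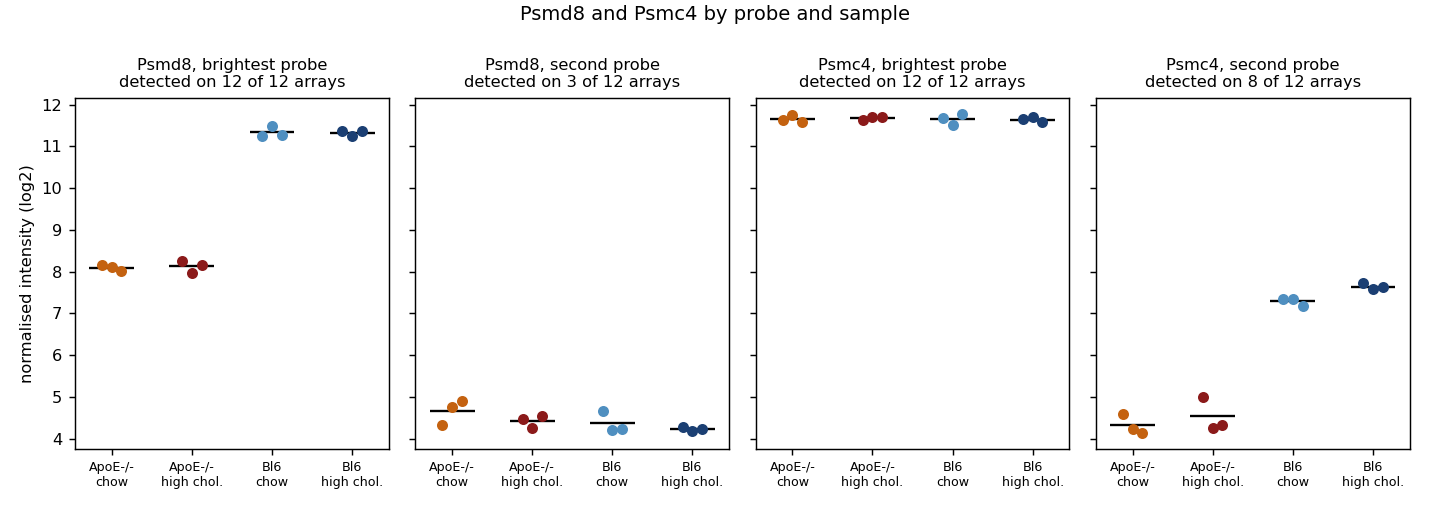
Log2 normalised brightness (vertical axis) of the brightest and the second probe of Psmd8 and of Psmc4 in each of the 12 samples, by group. The brightest Psmd8 probe sits between 7.97 and 8.26 in ApoE-/- and between 11.24 and 11.48 in Bl6, while the brightest Psmc4 probe is between 11.52 and 11.78 in all 12 samples.

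A second Psmd8 probe was too dim to show a fall. It read 4.33, 4.77 and 4.91 in samples 1 to 3 and 4.47, 4.26 and 4.54 in samples 4 to 6, against 4.66, 4.20 and 4.23 in samples 7 to 9 and 4.28, 4.17 and 4.22 in samples 10 to 12. It was detected on 3 arrays only (samples 2, 3 and 7), so this probe was near background in both genotypes. Its genotype difference was 0.25 ± 0.12 (limma adjusted p 0.349). The fall of Psmd8 therefore rests on the brightest probe alone.

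For Psmc4 the brightest probe was level between genotypes and a dimmer one fell. The brightest read 11.64, 11.74 and 11.59 in samples 1 to 3 and 11.64, 11.70 and 11.71 in samples 4 to 6, and 11.67, 11.52 and 11.78 in samples 7 to 9 and 11.64, 11.71 and 11.58 in samples 10 to 12. The genotypes overlapped entirely, and the difference was 0.02 ± 0.08 (95% interval -0.14 to 0.19; limma adjusted p 0.93). A second, dimmer probe that carries the Psmc4 symbol, but whose listed transcript was not matched in the gene table, fell in ApoE-/-. It read 4.60, 4.22, 4.14, 5.00, 4.25 and 4.34 in samples 1 to 6 and 7.35, 7.35, 7.17, 7.73, 7.58 and 7.62 in samples 7 to 12. All 6 Bl6 arrays detected it, but only samples 1 and 4 of the 6 ApoE-/- arrays did. It therefore passed the filter of 3 arrays only through the Bl6 samples. The difference was -3.04 ± 0.14 (95% interval -3.34 to -2.74; limma adjusted p 2.5e-07), and it was -1.28 with no background correction. With this probe counted, 2 of 54 proteasome probes were called, both lower, against 1.6% of all probes tested (0.951% lower). Both called probes carry the names of genes within 20 Mb of Apoe, and the second Psmc4 probe is placed there by its symbol only. Of 549 tested probes of genes in that window, 8.93% were called. Where on these transcripts the probes lie, and whether strain variants fall under them, was not analysed here.

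Over 17 proteasome genes with more than 1 tested probe, 22 pairs of a gene's brightest and another probe were compared for the size of their genotype difference. With all 924 arrangements of 6 against 6 samples counted, 2 pairs had an adjusted p under 0.05, those of Psmd8 and Psmc4. The Psmd8 pair sets the probe that fell against one near background in both genotypes, which had no room to fall, so it does not show that the probes disagree and nothing is read from it. The Psmc4 pair differed by -3.06 (two-sided exact permutation p 0.00216, the smallest this design can give). Its adjusted p was 0.0238 over the 22 pairs, and that value counts the Psmd8 pair, which had the same p. The size of the Psmc4 gap is uncertain, because 4 of the 6 ApoE-/- arrays did not detect the dimmer probe. That probe passed the detection filter only through Bl6, and its own difference shrank to -1.28 without background correction. The other 20 pairs differed by -0.46 to 0.24, with a median size of 0.167. The pair of Psmd1, which encodes the base scaffold Rpn2, came next by p, at -0.44 (exact permutation p 0.0108, adjusted 0.0794), while the pair of the chaperone Psmd9 was slightly larger at -0.46 (exact permutation p 0.0974, adjusted 0.357). In 11 pairs from 10 genes the probes had opposite signs, among them Psma5, Psmb2, Psmb7, Psmd7, Psmd9, Psmd10 and Psmd12.

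**Figure D2:**
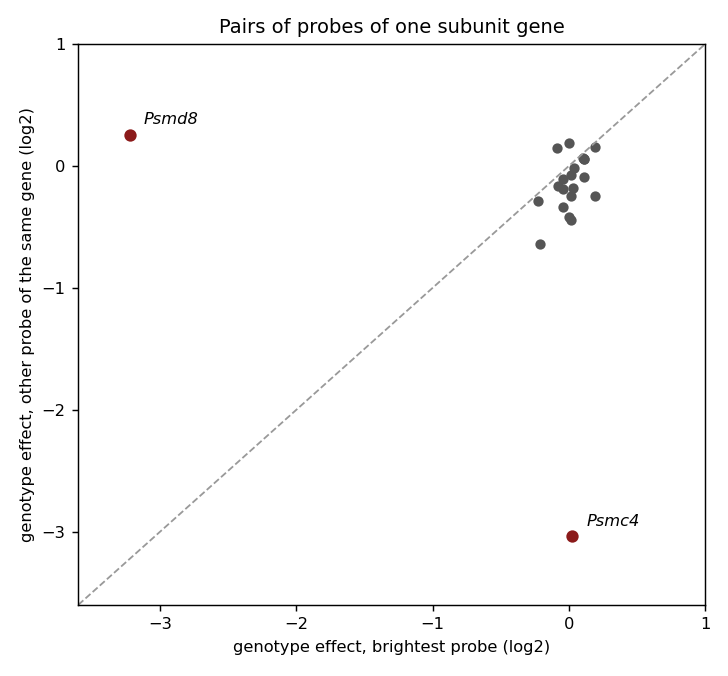
Genotype difference (ApoE-/- minus Bl6, log2) of each gene's brightest probe (horizontal axis) against that of another probe of the gene (vertical axis), 22 pairs of 17 genes. The other probe of Psmd8 was near background in both genotypes, so that point's distance from the equal line is not read; the distance of Psmc4 is uncertain in size, and the other 20 pairs lie within -0.46 to 0.24 of the line.

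Read by brightest probe, the rest of the lid was near 0. Leaving out Psmd8, the 6 other tested lid genes lay between -0.08 and 0.07, none was called by limma, none passed an unadjusted p of 0.05, and for all 6 the interval stayed within 1.5-fold. They include Psmd14, the subunit Rpn11 that cuts ubiquitin from the substrate, at -0.05 ± 0.10, and Psmd6, a scaffold subunit, at -0.05 ± 0.19. Psmd13, the lid subunit Rpn9, lies 121 Mb from Apoe on the same chromosome and read 0.07 ± 0.07 (adjusted p 0.691). Dimmer probes of the lid genes other than Psmd8 spread further, and none of them was called. They differed by -0.34 for Psmd6, 0.19 and -0.42 for Psmd7, -0.16 for Psmd11, -0.18 for Psmd12 and -0.11 for Psmd14.

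In the base, 5 of the 6 ATPase genes read below 0 and none passed the adjusted threshold; 2 had an unadjusted p under 0.05, as did 4 of all 32 proteasome genes (12.5%) and 16.8% of all genes tested. Psmc1, the ATPase Rpt2, whose tail in yeast opens the gate of the core, read 9.94, 9.81 and 10.03 in samples 1 to 3 and 10.01, 9.95 and 9.98 in samples 4 to 6, against 10.03, 10.08 and 10.07 in samples 7 to 9 and 10.32, 10.19 and 10.29 in samples 10 to 12. The genotypes barely failed to overlap, and the difference was -0.21 ± 0.07 (adjusted p 0.178). Psmc1 and Psmd8 were the 2 of 32 proteasome genes without overlap, against 2.93% of all genes. Psmc5, the ATPase Rpt6, differed by -0.23 ± 0.08 (adjusted p 0.203), and its other probe by -0.29. Psmc6, the ATPase Rpt4, has a dim probe and differed by -0.24 ± 0.15 (adjusted p 0.485). Its difference was -0.10 without background correction, -0.03 by the deposited log2 values, -0.15 without sample 8 and -0.14 without sample 12. With other samples left out in turn it ran to -0.31.

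Of the base subunits that are not ATPases, Psmd1 differed by 0.19 ± 0.11 (adjusted p 0.42) and Psmd4, the ubiquitin receptor Rpn10, by -0.13 ± 0.08 (adjusted p 0.52). Psmd2, the scaffold Rpn1, differed by -0.21 ± 0.19 and was the gene whose interval (-0.63 to 0.21) reached beyond 1.5-fold. Its sample 6 was low at 4.91, against 5.81 to 6.39 in the other 11 samples. Without sample 6 the Psmd2 difference was -0.02, without sample 5 it was -0.37, without background correction -0.07, and by the deposited log2 values -2.2e-05. The other Psmd2 probe, detected on 9 of 12 arrays, differed by -0.64. The other Psmd1 probes differed by 0.15 and -0.25, and none of these probes was called.

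In the core, the alpha subunit gene Psma4 differed by 0.14 ± 0.09 (adjusted p 0.497) and Psma7 by 0.10 ± 0.08 (adjusted p 0.59). The alpha genes Psma2 and Psma5 were at 0.00 ± 0.07 and -0.09 ± 0.07. Of the beta genes, Psmb1, a structural subunit without its own catalytic site, read 12.09, 12.14 and 11.96 in samples 1 to 3, 11.90, 12.06 and 12.07 in samples 4 to 6, 11.45, 11.59 and 11.84 in samples 7 to 9 and 11.84, 11.91 and 11.98 in samples 10 to 12. ApoE-/- samples were higher for the most part, with overlap, by 0.27 ± 0.09 (95% interval 0.07 to 0.46; adjusted p 0.169). Psmb7, which has the trypsin-like site, differed by 0.11 ± 0.08 (adjusted p 0.562), and Psmb5, which has the chymotrypsin-like site, by -0.07 ± 0.08. Psmb1 is called by the deposited log2 values (0.31, limma adjusted p 0.0184) and without background correction (0.26, adjusted p 0.0376), as is Psmc1 without background correction (-0.20, adjusted p 0.0437).

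**Figure D3:**
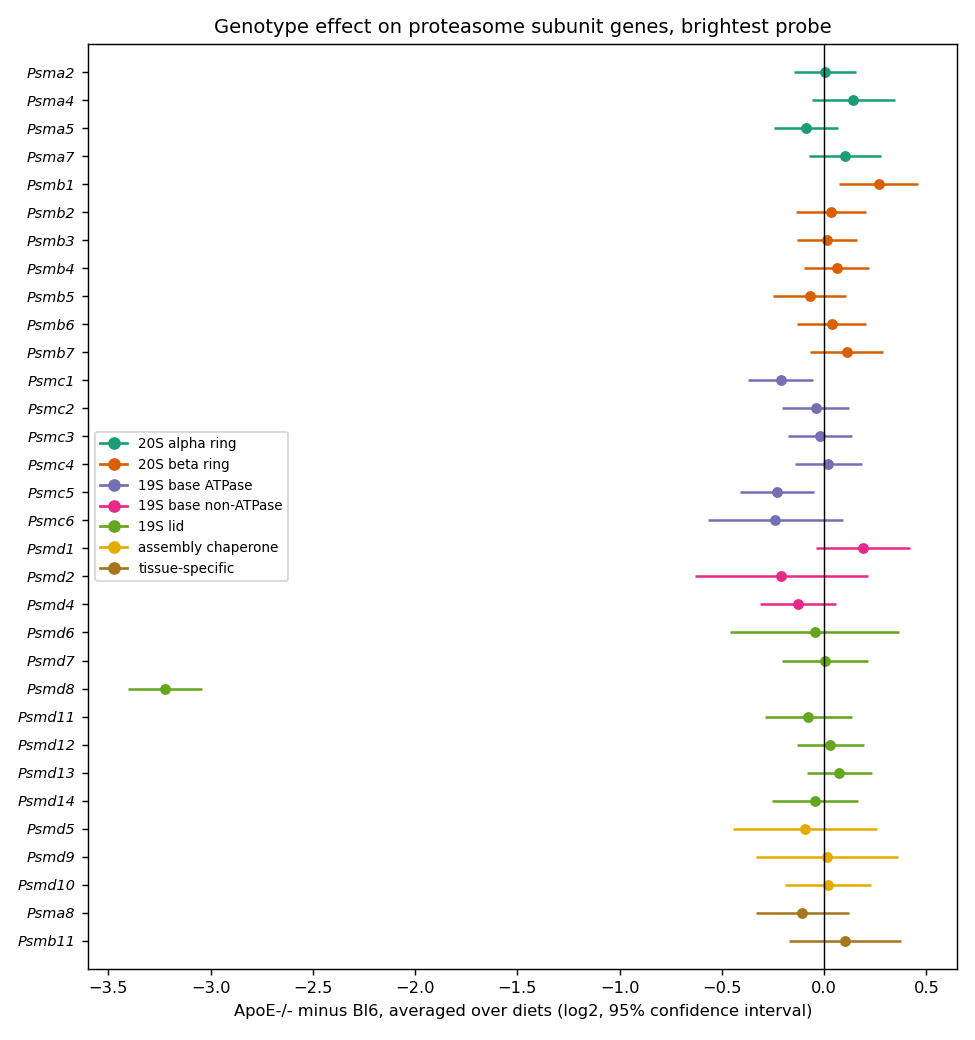
Genotype difference (ApoE-/- minus Bl6, log2, averaged over diets) of the 32 tested proteasome genes by role, with 95% confidence intervals. Psmd8 is at -3.22; the others lie between -0.24 and 0.27.

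The chaperones that help to assemble the cap, Psmd5, Psmd9 and Psmd10, differed by -0.10 ± 0.16, 0.02 ± 0.16 and 0.02 ± 0.10, with adjusted p of 0.832, 0.976 and 0.955. The testis subunit Psma8 and the thymus subunit Psmb11, which both lay near background (detected on 9 and 10 of 12 arrays), differed by -0.11 ± 0.10 and 0.10 ± 0.13. Psma1, Psma3, Psma6 and Psmd3 were detected on no more than 1 array per probe, so nothing is said of their level. The first 3 encode alpha subunits of the core and Psmd3 the lid subunit Rpn3.

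Genes that work with the proteasome were read beside it. Of 30 listed (immunoproteasome, activators and an inhibitor, assembly factors, receptors and shuttles, and NRF1 with its activators), 22 were tested. None of the 22 was called by limma for genotype, against 1.96% of all genes, with 3 (13.6%) at an unadjusted p under 0.05, against 16.8%. They ranged from -0.23 ± 0.08 (Ubqln4, a shuttle for tagged proteins; adjusted p 0.213) to 0.20 ± 0.08 (Ube3c, a ubiquitin ligase bound to the cap; adjusted p 0.244), and the interval of all 22 stayed within 1.5-fold. The immunoproteasome genes Psmb8, Psmb9 and Psmb10 were at 0.11, -0.15 and 0.01, and Nfe2l1 was at 0.02. For diet in Bl6 limma called none of these 22 either, against 0.0558% of all genes. An unadjusted p under 0.05 was seen for 2 (9.09%), against 12.0% of all genes.

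Some markers of other cell types differed with genotype beside this, where 1.96% of all tested genes were called (1.14% lower). Of 12 tested neutrophil markers of 13 listed, 9 rose in ApoE-/-, with a summed level of 14150 to 21585 against 6886 to 10531 in Bl6 (Ly6g was not tested). Of 9 macrophage markers 2 fell and 2 others read above 0, and the summed levels overlapped (49953 to 59964 against 59512 to 74056). Of 6 T cell markers 3 rose (10535 to 12787 against 7085 to 9347). Of 5 erythroid markers 1 fell, and none of 4 B cell or 5 proliferation markers was called. Their part in the Psmd8 result was not tested, and in bulk samples fewer cells of a type and less RNA per cell cannot be told apart.

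No proteasome gene passed the test for diet. In Bl6, limma called none of the 32, against 0.0558% of all genes, and 3 had an unadjusted p under 0.05 (9.38%, against 12.0% of all genes). The differences ran from -0.20 to 0.62, 21 of the 32 were above 0 (65.6%, against 49.1% of all genes), and the median was 0.05 against 0.00 for all genes. For 26 of 32 genes the interval stayed within 1.5-fold. In ApoE-/- none of 32 was called (0% of all genes), none had an unadjusted p under 0.05, and the differences ran from -0.47 (Psmd2) to 0.09 with a median of -0.02. Those values turn sign with the ApoE-/- diets exchanged.

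Psmc6 and Psmd6 had the largest diet differences in Bl6. Psmc6 read 5.23, 5.85 and 5.42 in samples 7 to 9 and 5.92, 5.90 and 6.52 in samples 10 to 12, with ApoE-/- between 5.34 and 5.90. The high-cholesterol samples lay above chow without overlap, by 0.62 ± 0.21 (95% interval 0.15 to 1.08; limma adjusted p 0.29). Psmd6 read 6.40, 7.12 and 7.41 in samples 7 to 9 and 7.23, 7.44 and 8.08 in samples 10 to 12, with overlap, a difference of 0.61 ± 0.27 (0.02 to 1.19; adjusted p 0.396). Both values moved when single samples were left out, reaching 0.83 for Psmd6 and 0.79 for Psmc6 at the highest. Psmd6 was 0.32 without sample 7 and 0.36 without sample 12, and Psmc6 was 0.48 and 0.41. Both were also smaller under other processing, with Psmc6 at 0.24 and Psmd6 at 0.38 both without background correction and by the deposited log2 values. Psmb1 differed by 0.28 ± 0.12 (adjusted p 0.392).

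**Figure D4:**
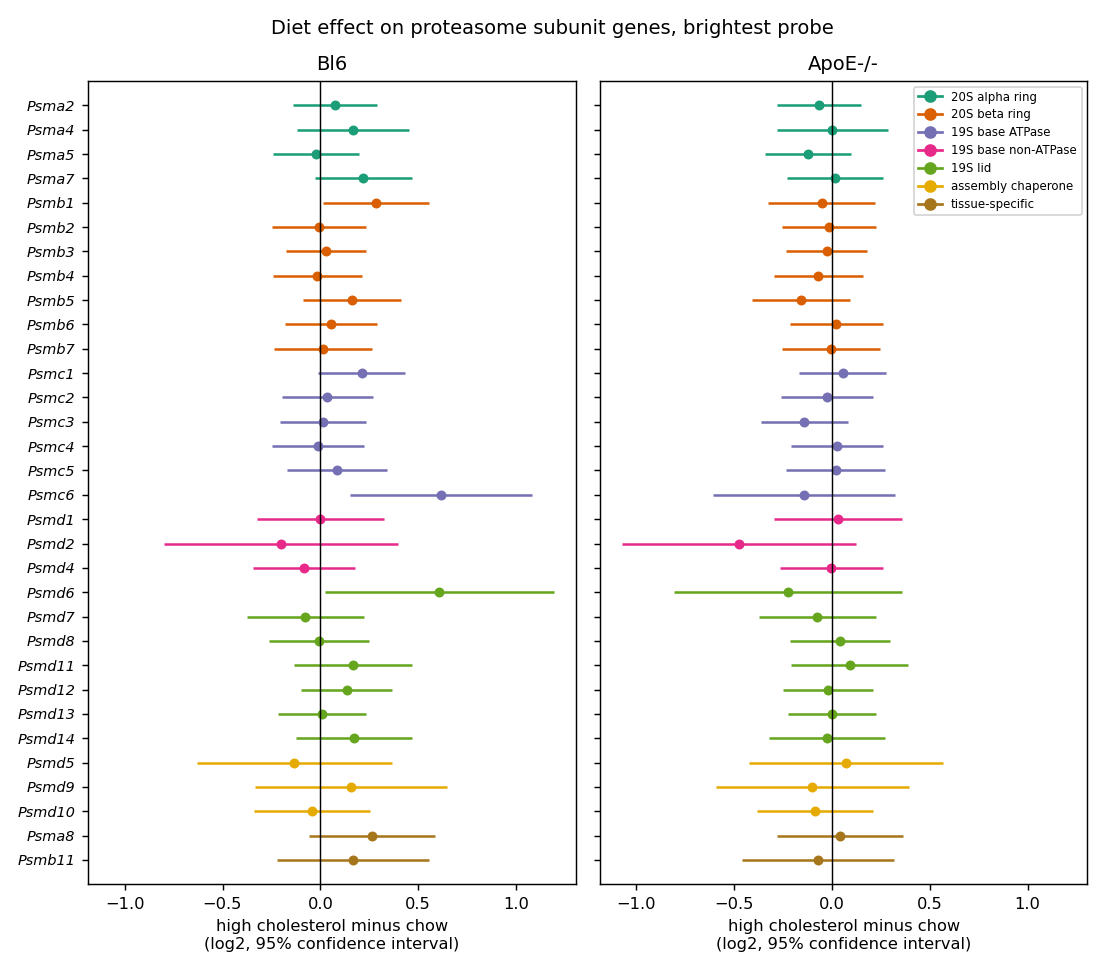
High-cholesterol minus chow difference (log2) of the 32 proteasome genes in Bl6 and in ApoE-/-, with 95% confidence intervals and colours by role. Psmc6 and Psmd6 reach 0.62 and 0.61 in Bl6; no gene passed the adjusted threshold.

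The interaction, that is the diet effect in ApoE-/- minus that in Bl6, was called for none of 32 genes by limma (0% of all genes), with 2 (6.25%) at an unadjusted p under 0.05, against 7.44% of all genes. It was below 0 for 26 of 32 genes (6 above, 18.8%, against 49.8% of all genes), with a median of -0.09 and a range of -0.83 (Psmd6) to 0.21 (Psmd5). With the ApoE-/- diets exchanged it was below 0 for 23 of 32 genes, with a median of -0.02 and a range of -0.47 (Psmc6) to 0.67 (Psmd2). The genes share the same arrays, so they are not independent readings. The mean of 31 genes without Psmd8, taken as a deviation from each gene's mean, was 0.02 ± 0.02, -0.03 ± 0.01, -0.04 ± 0.02 and 0.06 ± 0.05 (SD, n = 3) in ApoE-/- chow, ApoE-/- high-cholesterol, Bl6 chow and Bl6 high-cholesterol, with sample 12 at 0.11.

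The proteasome genes were steady between samples of a group. The median within-group SD was 0.108 over the 32 genes (0.0371 to 0.377), against 0.216 over all tested genes. The sets were not matched for brightness, and 30 of the 32 genes were detected on all 12 arrays. The 22 tested genes that work with the proteasome were about as precise, so this is not particular to the subunits. Their genotype differences had a median SE of 0.0815, against 0.0824 for the 32 genes and 0.122 for all genes tested.

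**Figure D5:**
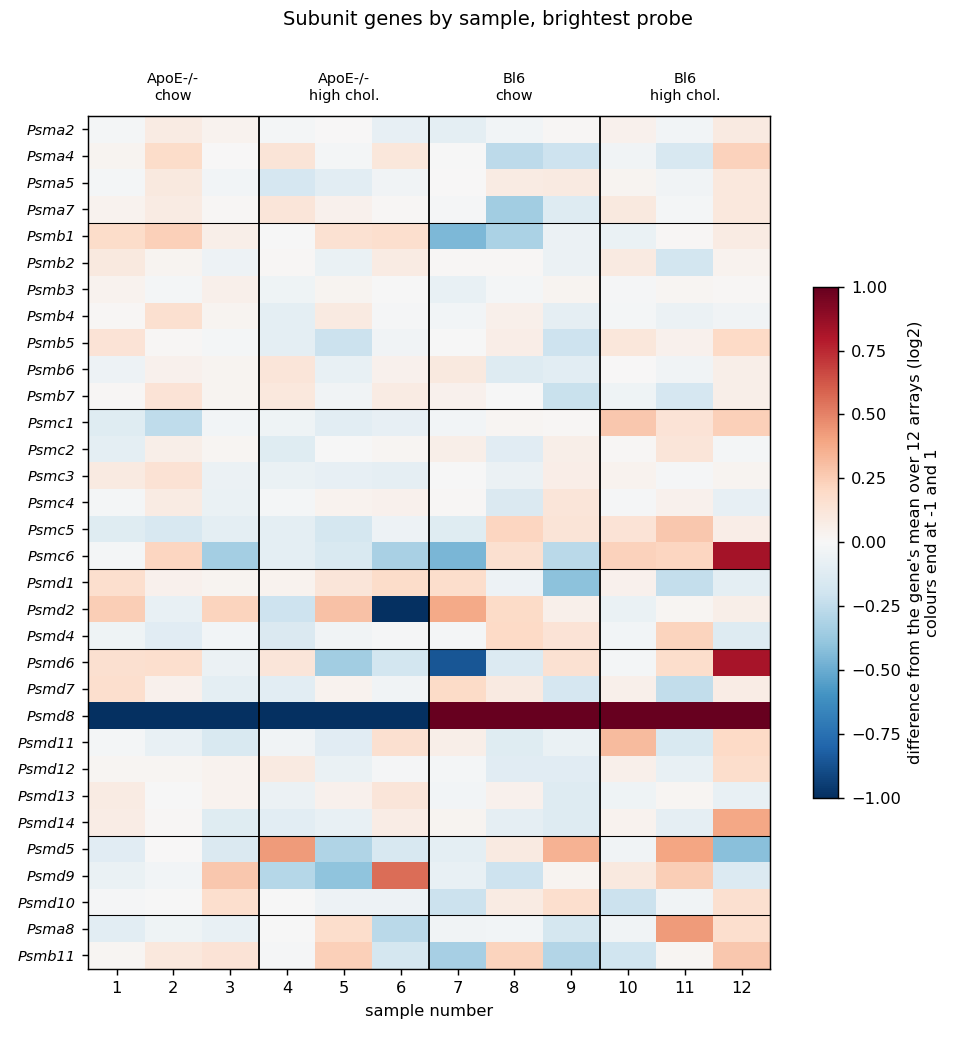
Each gene's log2 level in the 12 samples as the difference from its own mean (colour), by group and role. Psmd8 splits by genotype, and sample 12 is high for Psmc6, Psmd6 and Psmd14.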

How the data were processed

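RNA of 12 samples (4 groups of 3) was measured on Illumina MouseWG-6 v2 arrays. The deposited table holds, per the file headers, an intensity and a detection p-value for each of 46237 probes, neither scaled nor background-subtracted. A second deposited table holds log2 values, each column equal to 1 array's log2 intensity plus a constant; 6 columns, all from ApoE-/-, held the other diet's arrays. Intensities were background-corrected (normexp by limma's nec, with offset 16, from the detection p-values), quantile-normalised and log2-transformed with limma 3.58.1 in R 4.3.3. Only probes detected (p under 0.05) on 3 or more of the 12 arrays entered 1 fit of 4 group means, with 8 residual and 3.42 prior degrees of freedom; two-sided p-values were given a Benjamini-Hochberg adjustment across the 26390 probes, with a threshold of 0.05. The script was tested on simulated data. Gene names came from the platform's probe list, updated through RefSeq's GRCm38.p6 gene table. The number of arrays limits the precision.

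The members and the lists of partners and markers were chosen with earlier results of these data known. Named genes were Psmd8, those called, those on chromosome 7, in each role the 2 with the smallest genotype p and the 1 with the smallest diet p in Bl6, and genes whose probes differ in sign or call; Psma2, Psmb5, Psmd12 and Psmd14 were added after their values were seen. Probe pairs were compared with exact permutation tests. The motif search used RefSeq promoters. Alternatives were no background correction, median scaling, no detection filter, the deposited log2 values, exchanged ApoE-/- diets, only the groups compared, any tested probe, and each sample left out; a slide block was not run because no slide is named.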

Additional observations from a re-analysis of the deposited data

How the results depend on the processing

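Psmd8 was called in all 17 alternative settings of the genotype effect averaged over diets, at -3.26 to -2.83 (limma adjusted p 4.0e-16 to 2.2e-08). The second Psmc4 probe was called in all of them too, at -3.16 to -1.28. No called value turned sign. Among the named genes, in that effect and in the diet effect in Bl6, Psmb1 and Psmc1 alone gained a call, in 3 instances: Psmb1 with no background correction (0.26) and with the deposited log2 values (0.31), and Psmc1 with no background correction (-0.20).

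Of the proteasome genes, the count called for genotype was 1 averaged over diets, 1 on chow and 1 on high cholesterol. It was 3, 2 and 1 with no background correction, 2, 2 and 1 with the deposited log2 values, and 2, 2 and 2 where any tested probe of a gene counted. Leaving out each sample in turn gave 1 to 1 in each, and 0 to 0 for diet in Bl6, diet in ApoE-/- and the interaction.

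Counts over all probes moved more. With no background correction they were 1138 for genotype averaged over diets (423 as reported), 225 on chow (67), 632 on the high-cholesterol diet (202), 266 for diet in Bl6 (10) and 10 for the interaction (0). With the deposited log2 values they were 1653, 222, 949, 221 and 8. Fitting only the groups compared gave 26 on chow, 22 on the high-cholesterol diet and 4 for diet in Bl6, and exchanging the ApoE-/- diets gave 112 on the high-cholesterol diet. Leaving out each sample in turn gave 142 (without sample 1) to 605 (without 7) for genotype averaged over diets, 26 (without 1) to 77 (without 4) on chow, 38 (without 10) to 157 (without 7) on the high-cholesterol diet, 2 (without 8, 9, 10 or 12) to 41 (without 11) for diet in Bl6, and 0 to 0 for diet in ApoE-/- and the interaction. Moves of over 1.5 times came without any sample but 4 and 7 in the first count, without 1, 2, 8 or 9 on chow, without any but 7 and 9 on the high-cholesterol diet, and without 1 or any of 7 to 12 for diet in Bl6. The cause was not tested.

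No paired analysis was possible because the sample numbers run from 1 to 12 and no number is shared between groups. Small changes in dim probes, such as those of Psmc6, Psmd2, Psma8 and Psmb11, are limited by their closeness to background.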
